A study of Rattus norvegicus with 2 samples.

Results

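The MHC class II antigen presentation genes considered here are Cd74, RT1-Da, RT1-Ba, RT1-Db1 and RT1-DOa, and every probe set that the platform annotation assigns to 1 of these symbols was taken as a member. All 5 genes were found, with 12 probe sets among the 8740 non-control probe sets of the array and 5 of the 4736 gene symbols that had a probe set of their own. The genes were chosen by their high-salt to low-salt intensity ratios, which were already known, so those ratios are given as a description and were not tested. The high-salt group was heart tissue from male Dahl salt-sensitive rats aged 17 weeks that were fed a high salt diet and are labelled as having chronic heart failure. The low-salt group was heart tissue from male rats of the same strain and age on a low salt diet. The Dahl salt-sensitive strain is inbred and develops hypertension on dietary salt. Each group was 1 array, and the labels name neither the chamber sampled nor the number of animals behind the RNA.

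MHC class II molecules are paired alpha and beta chains that display peptides from engulfed and membrane proteins to CD4+ T cells. The invariant chain, encoded by Cd74, fills the groove of a new class II molecule and takes it to acidic compartments, where lysosomal proteases degrade the chain and the DM molecule exchanges its last fragment for a peptide. In the heart these genes are known chiefly from resident macrophages, dendritic cells and B cells, and from endothelial cells after interferon gamma. The class II genes and Cd74 share a promoter module in which an X box, bound by the RFX complex, lies upstream of a Y box, bound by NF-Y, and the coactivator CIITA joins the bound factors.

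The promoter module is shown because it is what the 5 genes have in common beside their function. RefSeq promoter windows on build GRCr8, from 250 bases before to 50 bases after each gene start, were found for all 5 genes. They are those of the reference strain and not of the Dahl rat. In the stretches below, read 5′ to 3′ on the strand of the gene, the first capitals mark a match to GNAAC, letters within the X box, and the second capitals mark ATTGG or its reverse complement CCAAT, the core of the Y box.
Cd74, chr18:56526972-56527039, plus strand: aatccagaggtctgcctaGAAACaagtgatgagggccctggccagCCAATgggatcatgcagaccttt
RT1-Da, chr20:4515315-4515388, plus strand: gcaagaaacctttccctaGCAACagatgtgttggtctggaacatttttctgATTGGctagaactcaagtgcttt
RT1-Ba, chr20:4576963-4577036, plus strand: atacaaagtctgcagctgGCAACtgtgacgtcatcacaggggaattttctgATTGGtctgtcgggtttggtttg
RT1-Db1, chr20:4560220-4560292, minus strand: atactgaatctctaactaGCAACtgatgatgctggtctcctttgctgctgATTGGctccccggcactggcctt
RT1-DOa, chr20:4758508-4758581, minus strand: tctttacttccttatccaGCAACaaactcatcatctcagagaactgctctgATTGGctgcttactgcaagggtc

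The 4 chain genes, all on chromosome 20, had the same core letters, GCAAC followed by ATTGG. The gap between the cores was 28 bases in RT1-Da, RT1-Ba and RT1-DOa and 27 bases in RT1-Db1. Cd74, on chromosome 18, had GAAAC, a gap of 22 bases and the Y box core in the other orientation. Its pair also lay farthest from the gene start among the members, with the first core base 216 bases before it, against 76 to 140 bases before it in these 4 chain genes. Each member window held 1 such pair on the strand of the gene and none on the opposite strand. The letters and the allowed gap of 15 to 30 bases were settled after these windows had been read, so 5 of 5 is a description. Of all 33469 windows, searched on both strands, 5.02% held a pair, 37.5% held CCAAT or ATTGG and 85.5% held GNAAC. Among the other class II chain genes on the array, the windows of RT1-DOb, RT1-Ha and RT1-Bb held a pair and that of RT1-DMa did not, which says only that these letters are not there in it. The pair of RT1-Bb began 195 bases before the gene start with a gap of 18 bases, so a far pair and a short gap are not particular to Cd74. RT1-DOb and RT1-Ha each held 1 more pair on the opposite strand, and no window was found for RT1-DMb.

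**Figure D1:**
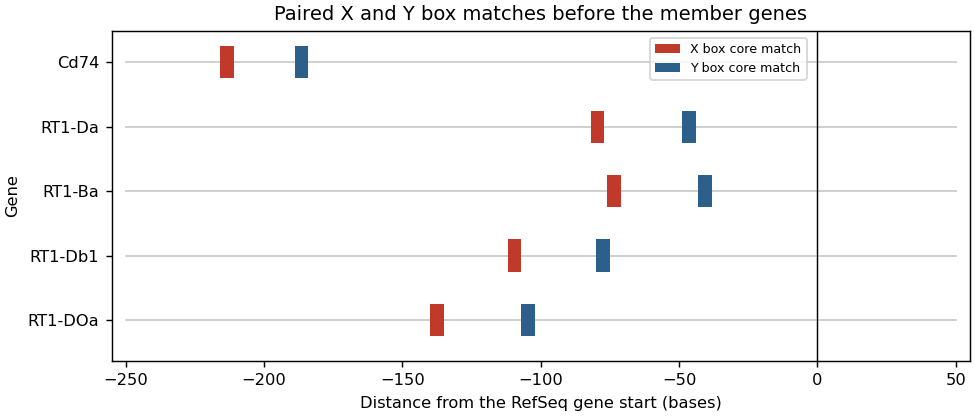
Position of the paired matches in the promoter window of each member gene, in bases from the RefSeq gene start. Boxes mark the 5 bases of each core on the strand of the gene, and the pair of Cd74 lies farthest from the start.

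The arrays were read as deposited, on a linear intensity scale on which 27.3% of non-control probe sets were below 0 on each array. Both arrays had a 2% trimmed mean of 100.2. A noise floor of 126.4, set at the 95th percentile of the absolute value of the negative readings, stands in for a detection call, and 20.0% of the probe sets reached it on the high-salt array and 20.3% on the low-salt array. A probe set counts as measured where at least 1 array reached that floor, and values under the floor have no reliable order. There were 1955 measured probe sets, 1561 of them on both arrays. The tissue label fitted the defining markers of heart muscle, with Actc1 at 8364.9 with high salt and 7848.9 with low salt and Myl2 at up to 7677.8 with high salt and 6884.4 with low salt. These 2 genes show the tissue and not the direction of the heart muscle list. Of its 12 measured probe sets, 8 read lower with high salt and 4 higher. Their median log2 ratio (high salt over low salt) was -0.11, and the lowest was -0.94, for Myh6. The other Myh6 probe sets had log2 ratios of -0.52 and, in the brightest, -0.10. With 1 array per diet there is no spread between replicates and no p-value, and the number of arrays limits the precision. The log2 ratio varied with an SD of 0.22 among probe sets of the same gene (231 genes), an error that holds no variation between animals.

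Of the 12 member probe sets, 6 were measured and 6 lay under the noise floor on both arrays. All 6 measured probe sets read lower in the high-salt heart, and 54.3% of all measured probe sets did. In this comparison, 2 of the 6 were at least 2-fold lower, both of Cd74, none was 2-fold higher and 4 were neither. Over all measured probe sets 1.69% were at least 2-fold lower and 3.53% at least 2-fold higher. The median log2 ratio (high salt over low salt) was -0.71 over the 6, against -0.04 over all measured probe sets, and ran from -1.43 to -0.08. Without Cd74 the median over the other 4 was -0.43. RT1-DOa was measured through the low-salt array alone, so its direction was fixed by the floor, and over the 5 probe sets measured on both arrays the median was -0.65. Heart tissue and not sorted cells was measured, so fewer cells of a type and less RNA per cell cannot be told apart.

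**Figure D2:**
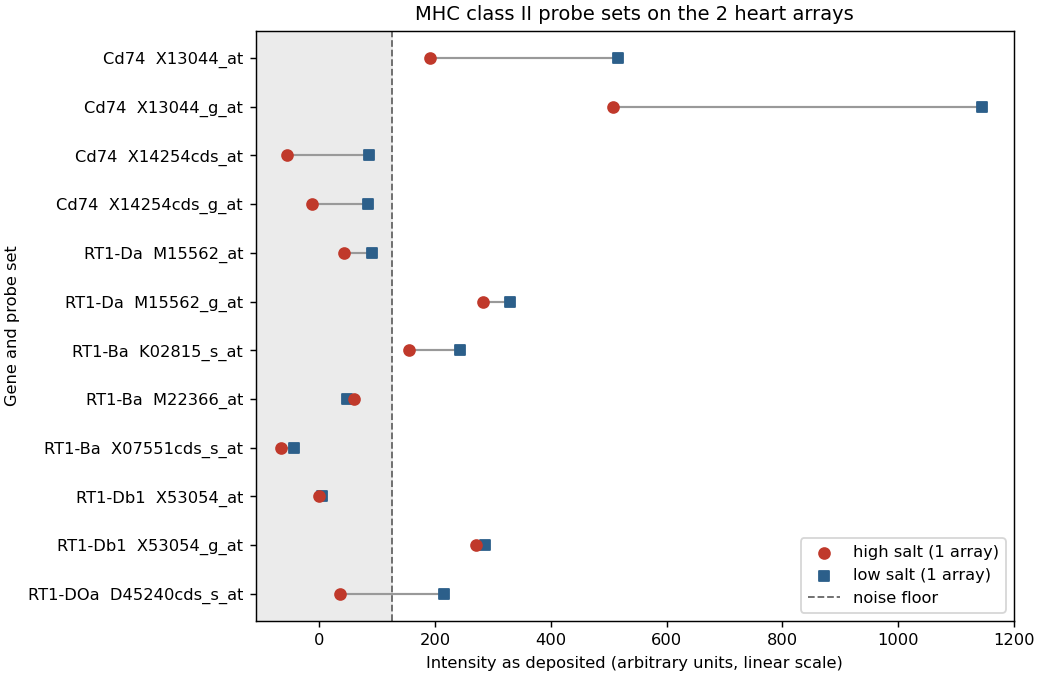
Intensity of every member probe set on the high-salt array (circles) and the low-salt array (squares), on a linear axis with the noise floor of 126.4 as a dashed line. Cd74 shows the widest gaps, RT1-Da and RT1-Db1 read nearly alike on the arrays, and 6 probe sets lie wholly in the shaded range under the floor.

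Cd74, the chaperone of the class II chains, had the brightest member probe set. X13044_g_at read 507.3 on the high-salt array and 1144.4 on the low-salt array, a 2.26-fold lower level (log2 ratio -1.17). X13044_at, from the same transcript record, read 191.6 on the high-salt array and 516.0 on the low-salt array, a 2.69-fold lower level (log2 ratio -1.43). These ratios differed by 0.26 on the log2 scale, close to the SD among probe sets of 1 gene, and the probe sets share a target, so they are not separate replicates. Among the 1561 probe sets above the floor on both arrays, X13044_at had the fourth lowest ratio and X13044_g_at the ninth lowest. For scale, the 260 other probe sets within 0.5 log2 units of the brightness of X13044_g_at had log2 ratios with a 5th percentile of -0.74, a median of -0.05 and a 95th percentile of 0.77. The other Cd74 record gave X14254cds_at, at -55.6 with high salt and 86.1 with low salt, and X14254cds_g_at, at -13.4 with high salt and 83.4 with low salt. Both lay under the noise floor on each array and give no ratio.

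**Figure D3:**
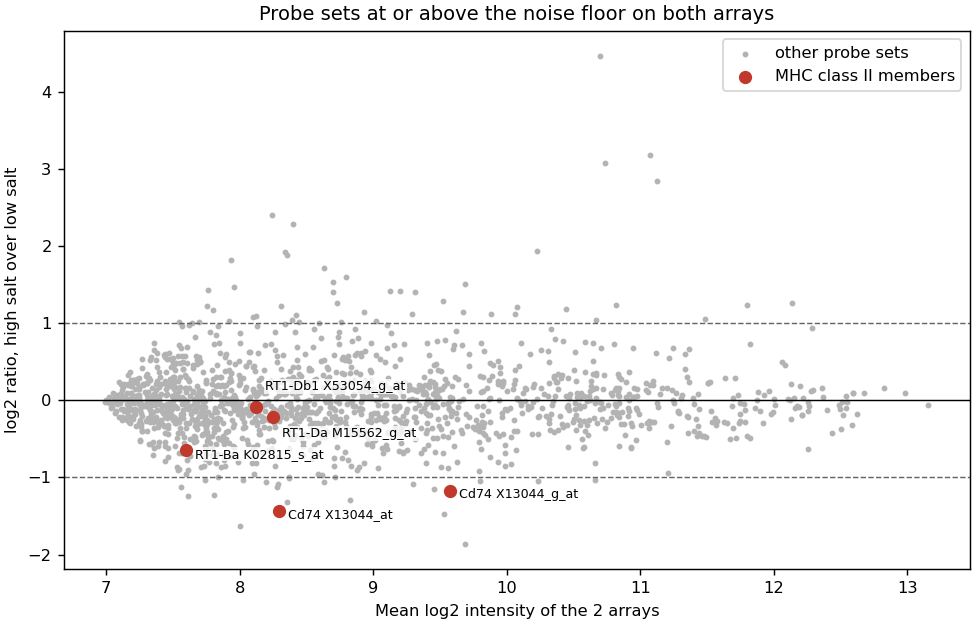
Log2 ratio (high salt over low salt) against mean log2 intensity for the 1561 probe sets at or above the noise floor on both arrays, with the 5 member probe sets among them in red and dashed lines at 2-fold. Both Cd74 probe sets lie below the lower line, and the RT1-Da, RT1-Db1 and RT1-Ba probe sets lie between the lines.

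The classical chains that hold the peptide differed less than Cd74. RT1-Da encodes the alpha chain of the RT1-D molecule, the rat counterpart of human HLA-DR. Its probe set M15562_g_at read 282.5 on the high-salt array and 329.4 on the low-salt array, a log2 ratio of -0.22, close in size to the SD among probe sets of a gene. RT1-Db1 encodes the beta chain that pairs with it, and X53054_g_at read 271.4 on the high-salt array and 286.9 on the low-salt array, a log2 ratio of -0.08. The alpha and beta chains of RT1-D thus differed between the diets by no more than probe sets of 1 gene differ from each other. RT1-Ba encodes the alpha chain of RT1-B, the counterpart of HLA-DQ. K02815_s_at read 154.8 on the high-salt array and 242.6 on the low-salt array, a 1.57-fold lower level (log2 ratio -0.65) close to the noise floor, in a probe set whose name marks possible cross-hybridisation among related genes. The 569 other probe sets of like brightness had a 5th percentile of -0.71 and a 95th percentile of 0.61.

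The dim probe sets of the classical chains lay under the noise floor. For RT1-Da, M15562_at read 43.0 with high salt and 90.8 with low salt, and for RT1-Db1, X53054_at read -0.6 with high salt and 5.4 with low salt. For RT1-Ba, M22366_at read 60.3 with high salt and 48.1 with low salt, the one member probe set that read higher in the high-salt heart, and X07551cds_s_at read -66.9 with high salt and -43.6 with low salt. Probe sets of the same gene thus ranged from clearly measured to below 0, and for RT1-Da, RT1-Ba and RT1-Db1 the direction rests on 1 probe set each.

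RT1-DOa encodes the alpha chain of DO, a class II-like molecule that holds back the peptide exchange by DM. Its only probe set, D45240cds_s_at, of the same type, read 35.0 on the high-salt array and 216.0 on the low-salt array. Because the high-salt value is under the noise floor, the ratio is a bound, at least 1.71-fold lower (log2 ratio -0.77). As deposited the values differ 6.17-fold, a figure that depends on a high-salt reading within the noise. The beta chain that pairs with it, RT1-DOb, read 2.7 with high salt and -12.3 with low salt.

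The other class II chains on the array were 5 of 8 genes listed, with 12 probe sets, of which 1 was measured. That one, rc_AI171966_at of RT1-DMb, the DM beta chain, read 97.0 on the high-salt array and 182.9 on the low-salt array, at least 1.45-fold lower (log2 ratio -0.53). Its other probe sets, U31599_at and U31599_g_at, were under the floor, as were both of RT1-DMa, the DM alpha chain, at up to 84.0 on the high-salt and 65.4 on the low-salt array. RT1-Bb, the beta chain of RT1-B, had 5 probe sets under the floor, the brightest at 64.4 with high salt and 109.1 with low salt. No chain gene outside the members therefore had a level on both arrays.

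Lysosomal proteases and other genes of class II processing gave ratios on both sides of 1. Of 18 processing genes and alternative symbols listed, 12 genes were on the array with 21 probe sets, and 12 probe sets of 8 genes were measured. In this list, 1 was at least 2-fold higher, none was 2-fold lower and 11 were neither, with 10 of 12 reading higher and a median log2 ratio of 0.26. Over all measured probe sets 3.53% were at least 2-fold higher and 54.3% read lower. The probe set of Ctss, that of Ctsh and the dimmer one of Ctsl were measured through the high-salt array alone, which fixed their direction, and 7 of the 9 measured on both arrays read higher. Ctsl, which encodes a protease that degrades the invariant chain in the thymic epithelium of the mouse, read 1151.5 on the high-salt array and 471.5 on the low-salt array, a 2.44-fold higher level. Its dimmer probe set S85184_g_at read 137.8 with high salt and 74.2 with low salt, at least 1.09-fold higher. Ctsb, a lysosomal cysteine protease, read 643.1 on the high-salt array and 337.3 on the low-salt array, a 1.91-fold higher level.

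Ctss, the protease that removes the invariant chain in most antigen-presenting cells of the mouse, read 135.3 on the high-salt array and 94.4 on the low-salt array, at least 1.07-fold higher. Ctsh, an aminopeptidase of the same compartment, read 192.0 with high salt and 115.9 with low salt, at least 1.52-fold higher. Cst3, the secreted cathepsin inhibitor cystatin C, read 1731.6 with high salt and 1451.9 with low salt in its brighter probe set and 1503.3 with high salt and 1182.7 with low salt in the other. The aspartic protease Ctsd had log2 ratios of 0.32 and 0.06 in its 2 probe sets. Lamp1, a lysosomal membrane protein, read 763.1 with high salt and 770.0 with low salt, and its relative Lamp2 had log2 ratios of 0.26 and -0.12. The Ctsl and Ctsb ratios are thus of opposite sign to that of Cd74, while the log2 ratios of the other measured members lay between -0.12 and 0.35, apart from Ctsh at 0.60.

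**Figure D4:**
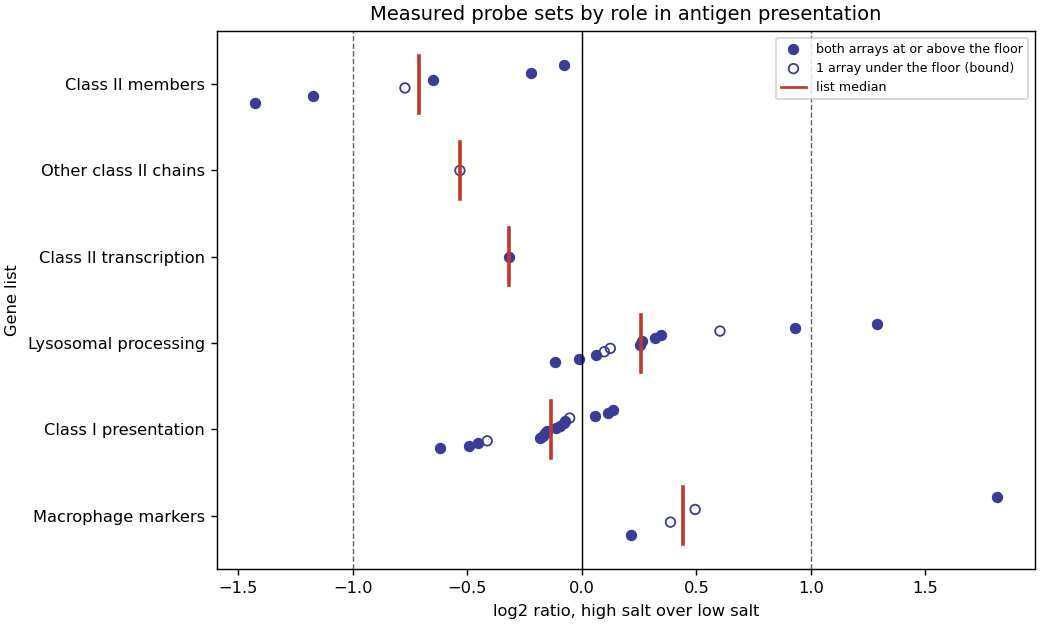
Log2 ratio (high salt over low salt) for the measured probe sets of the class II members and of 5 related lists. Filled points reached the noise floor on both arrays, open points are bounds, red lines are list medians and dashed lines mark 2-fold. The member median is -0.71, the processing median 0.26 and the class I median -0.13.

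Regulators of class II transcription gave almost no measured values. Of 10 symbols listed, 5 genes were on the array with 8 probe sets. Nfyc, a subunit of the NF-Y factor that binds the Y box, was the one gene measured. It read 351.1 on the high-salt array and 438.1 on the low-salt array (log2 ratio -0.32) in rc_AA875121_at, while its other probe set was under the floor. Rfx5, a subunit of the complex on the X box, read 11.1 with high salt and 15.0 with low salt. Ciita had no probe set with that symbol. None of the 24 probe sets of 14 genes of the interferon gamma axis reached the floor, with Ifng at up to 6.0 with high salt and 20.5 with low salt, Irf1 at up to 85.4 with high salt and 95.7 with low salt, and Ifngr1 at 81.9 with high salt and 76.3 with low salt. These genes therefore give no ratio to set beside that of Cd74.

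Class I presentation, which displays peptides from inside the cell, had a median log2 ratio nearer to that of all measured probe sets than the class II members had. Of 40 symbols listed, 16 genes were on the array with 30 probe sets, and 16 probe sets of 11 genes were measured. None was 2-fold higher or lower, 13 read lower and 3 higher, and the median log2 ratio was -0.13. The measured probe sets of RT1-S3 and Psmb9 reached the floor on the low-salt array alone, which fixed their direction. Of the 14 measured on both arrays, 3 read higher. Over all measured probe sets 54.3% read lower and the median was -0.04. B2m, the light chain of every classical class I molecule, read 1097.4 on the high-salt array and 1186.5 on the low-salt array (log2 ratio -0.11). The class I heavy chain genes RT1-CE16 and RT1-CE12 had log2 ratios of -0.08 and -0.17 in probe sets of a type that can share sequence among class I genes. RT1-S3 read 123.3 with high salt and 131.2 with low salt in AF029240_g_at, its one measured probe set.

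Tap1, a subunit of the peptide transporter, read 610.3 with high salt and 586.4 with low salt. Psme1, a proteasome activator subunit induced by interferon gamma, had log2 ratios of -0.62 and -0.46 in its 2 measured probe sets, D45249_g_at (1228.2 with high salt and 1888.5 with low salt) and D45249_at (1330.8 with high salt and 1824.7 with low salt). Its partner Psme2 had a log2 ratio of -0.15, and Psmb9, an immunoproteasome subunit, read 91.5 with high salt and 168.4 with low salt, at least 1.33-fold lower. The peptide-loading chaperones Calr (-0.18 and -0.49), Canx (from -0.16 to 0.14 over 4 measured probe sets) and Pdia3 (-0.08) completed the list as log2 ratios. The lowest class I ratio, that of Psme1, was thus nearer to 0 than both Cd74 ratios.

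Markers of the cells known to carry class II were set beside these values, and their part in the result was not tested. Of 20 macrophage symbols listed, 10 genes were on the array and 4 probe sets of 4 genes were measured, all of them higher in the high-salt heart, though C1qb and Lgals3 were measured through that array alone. Over all measured probe sets 54.3% read lower. Lyz2, lysozyme of macrophages and neutrophils, read 458.6 with high salt and 130.4 with low salt, a 3.52-fold higher level. The low-salt value lies just above the floor, and against the higher floor of 271.2 the log2 ratio of Lyz2 was 0.76 in place of 1.81. C1qb, a complement subunit made by macrophages, read 178.1 with high salt and 97.1 with low salt, at least 1.41-fold higher. Its other probe set, X71127_g_at, was under the floor, at -11.4 with high salt and 1.1 with low salt. Lgals3 read 165.3 with high salt and 66.9 with low salt, at least 1.31-fold higher. The lipopolysaccharide co-receptor Cd14 read 149.1 with high salt and 128.7 with low salt, a 1.16-fold higher level. That log2 ratio of 0.21 is close in size to the SD among probe sets of a gene, and the low-salt value lies just above the floor. The other Cd14 probe set was under the floor, at 51.8 with high salt and 41.8 with low salt. The brightest probe sets of the 10 genes summed to 1068.1 on the high-salt array and 560.1 on the low-salt array. Lyz2 was the largest value in both sums, which also hold genes under the floor, whose readings have no reliable order. Among these were Csf1r (1.0 with high salt and 22.7 with low salt) and Itgam (8.0 with high salt and 8.5 with low salt). Cd74 and Lyz2 thus read in opposite directions on the same arrays.

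None of the 6 dendritic cell genes or the 3 B cell genes on the array reached the noise floor. The brightest probe sets of the dendritic genes summed, as read, to 48.3 on the high-salt array and -35.0 on the low-salt array, and to 67.8 with high salt and 114.0 with low salt where negative readings were set to 0, so the sum has no direction. Among them was Cd86, a costimulatory molecule, at 44.7 with high salt and 41.7 with low salt in its brighter probe set. The B cell genes summed to 122.2 with high salt and 218.9 with low salt, with Fcer2 at 71.4 with high salt and 104.4 with low salt, Cd37 at 22.4 with high salt and 73.3 with low salt and Cd79b, a part of the B cell receptor, at 28.4 with high salt and 41.2 with low salt. All 3 B cell genes lay under the floor on both arrays, so neither their readings nor their sum has a reliable order to set beside Cd74. Of 8 pan-leukocyte genes, Cd48 was the one measured, at 122.0 with high salt and 126.9 with low salt. It reached the floor on the low-salt array alone, and only just, which fixed its direction. The 3 probe sets of Ptprc, which encodes CD45, read at most 43.3 with high salt and 30.8 with low salt. Of 6 endothelial genes, Cav1 read 135.5 with high salt and 254.4 with low salt, a 1.88-fold lower level. Its high-salt value lies just above the floor, and both values lie under the higher floor of 271.2. Flt1 read 121.3 with high salt and 127.9 with low salt. Flt1 was measured through the low-salt array alone, which fixed its direction. Pecam1, Kdr, Vwf and Icam2 were under the floor on both arrays, the brightest being Pecam1 at 117.5 with high salt and 107.4 with low salt. Cav1 was thus the only endothelial gene with a level on both arrays.

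With 2 arrays the pattern of a gene is a single ratio, so likeness to Cd74 was taken as the distance of the log2 ratio from its median of -1.30. Of 958 genes above the floor on both arrays in their brightest probe set, the 5 nearest were Tuba4a (log2 ratio -1.29), Pxmp2 (-1.23), Eci1 (-1.48), Rxrg (-1.12) and Acadvl (-1.09). Tuba4a, an alpha tubulin, read 289.8 on the high-salt array and 707.6 on the low-salt array. Eci1 and Acadvl are enzymes of mitochondrial fatty acid oxidation. None of the 5 belongs to the lists of antigen presentation or immune cell markers.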

How the data were processed

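Per the labels' protocols, total RNA was turned into fragmented, biotin-labelled cRNA. For each array the authors deposited 1 linear intensity per probe set. The software behind them is not given in the sources used here, and no detection calls were used. Because the 2% trimmed means differed by 0.0030% between arrays, the intensities were used as deposited. Gene names came from the platform annotation, in which, of 8740 probe sets, 7006 had 1 symbol, 308 several and 1426 none, and those with 1 symbol were named. Both values were raised to the noise floor before taking the log2 ratio (high salt over low salt), and no test was possible with 1 array per group. The steps were tested on simulated data in which only large changes were planted, in probe sets far above the floor. That simulation does not cover small differences or dim probe sets, such as those of the RT1 members.

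The members, lists and floor were chosen with earlier results of these data known. Named were all member probe sets, all measured probe sets of the presentation and interferon gamma lists, up to 4 genes of each marker list by brightness or past 2-fold, and the 5 genes nearest to Cd74; Csf1r, Itgam and genes under the floor in the other lists were chosen after their values were seen. Alternatives were other floors, quantile, median and loess (span 0.4) scaling, other thresholds and other probe sets. The tools were matplotlib 3.10.9 for the figures, statsmodels 0.14.6 for loess, and pandas 2.3.3, scipy 1.17.1 and numpy 2.4.6 under Python 3.11.15.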

Additional observations from a re-analysis of the deposited data

How the results depend on the processing

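The lower reading of Cd74 kept its direction under every floor, scaling and probe set choice tried. Its log2 ratios ran from -1.43 to -0.93 for X13044_at and from -1.21 to -1.13 for X13044_g_at. The -0.93 is a bound, because the high-salt value of 191.6 lies under the floor of 271.2 used there. The other 4 measured member probe sets also kept a ratio below 1 wherever they were measured. However, the log2 ratio of RT1-Db1 reached -0.0057 and that of RT1-DOa ran from -2.63 to -0.74. With the floor of 126.4, under each scaling too, RT1-DOa reached the floor on the low-salt array alone, which fixed its direction. The Cd74 median of -1.30 moved to -2.18 with the floor of 10.9 (the 40th percentile of all values), which lets its dim probe sets in, and to -1.05 with the floor of 271.2 (the 99th percentile of the size of values below 0). The member median of -0.71 moved to -1.13 with the floor of 10.9 and to -0.43 without Cd74. It moved to -1.43 when probe sets with the suffixes _s, _f, _x, _g, _r and _i were left out, which left 1. That one was X13044_at of Cd74, and every measured probe set of the RT1 members had such a suffix. The count of 2 probe sets at least 2-fold lower became 6 with the floor of 10.9, where 10 member probe sets were measured and 7.62% of all measured ones were as low. It became 4 of 8 with no floor and log2(value + 1), where 9.20% of all were as low. With the floor of 271.2 it was 1 of 4, where 0.912% were. Without the probe sets with these suffixes it was 1 of 1, where 1.91% of all were as low. It was 4 at 1.5-fold and 0 at 3-fold, and the shares over all measured probe sets at these thresholds were not computed. The scalings moved the median of all measured probe sets by at most 0.0438. No paired analysis was possible because each group has 1 array.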

Other observations

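Genes of the type I interferon response, which shares regulators with antigen presentation, read higher with high salt where they were measured. Of 13 symbols listed, 7 genes were on the array and 5 probe sets of 4 genes were measured, all 5 with a ratio above 1 and none past 2-fold against the noise floor (median log2 ratio 0.46). Over all measured probe sets 54.3% had a ratio below 1. Oas1a alone reached the floor on both arrays, so the direction of the other 4 probe sets was fixed by the array that reached it. Rsad2, an antiviral enzyme, read 194.7 and 182.5 in its 2 probe sets in the high-salt heart, against 23.1 and 17.8 with low salt, at least 1.54-fold and 1.44-fold higher. Irf7, a transcription factor of that response, read 173.9 with high salt and 54.3 with low salt, at least 1.38-fold higher, in the brighter of its 2 probe sets. Mx2 read 147.7 with high salt and 123.5 with low salt, and Oas1a 178.7 with high salt and 170.2 with low salt.

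Markers of T cells, whose receptors recognise class II and class I molecules, were under the noise floor in all 12 probe sets of 10 genes, with Cd4 at 10.2 on the high-salt array and 5.2 on the low-salt array and Cd8b, the brightest, at 84.9 with high salt and 89.9 with low salt. The neutrophil genes S100a8 and S100a9 read 48.4 and 62.6 in the high-salt heart, against -6.1 and -6.1 in the low-salt heart, all under the floor. Class I probe sets outside the list included M31018_f_at of RT1-A, at 937.5 on the high-salt array and 1238.8 on the low-salt array. AF074609mRNA_f_at, which carries several class I symbols and so names no gene, read 741.2 with high salt and 599.9 with low salt.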
